A study of Drosophila melanogaster with 2 samples.

Results

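The genes of the cytosolic ribosomal proteins were described across the cell types of the adult Drosophila midgut. All genes of the deposited expression table whose names start with RpL or RpS were taken, which gave 87 of 9607 genes. Of these, 36 encode proteins of the small (40S) subunit and 51 proteins of the large (60S) subunit, by their names. They hold 9 paralog pairs, named alike apart from a final a or b or the ending -like. Single cells of the midgut epithelium came from wild type Canton S females, 2711 cells from flies of 1 day of age and 1473 cells from flies of 3 days. The classes are the authors' 10: ISC1 and ISC2 (intestinal stem cells), EB1, EB2 and EB3 (enteroblasts, the committed daughters of stem cells), EC-like cells, the enteroendocrine classes AstC+EE and Tk+EE, and the enterocyte classes apEC and mEC. The stem cell and enteroblast classes are grouped here as progenitor cells, AstC+EE with Tk+EE as enteroendocrine cells, and apEC with mEC as enterocytes. Each age had 1 library, so no test between ages was possible and age and library cannot be told apart.

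A ribosome is built from ribosomal RNA and about equal numbers of each ribosomal protein, so the genes of these proteins are expressed at high and balanced levels in growing cells. Ribosome production is raised by growth signals such as insulin, TOR and Myc, and in the fly gut it accompanies the growth of stem cells and young enterocytes. Flies carry a second copy of several ribosomal protein genes, and some of these copies are known from the ovary or testis.

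The libraries held 86114751 unique molecular identifiers (UMIs, each marking 1 captured transcript) at day 1 and 58700717 at day 3. The median depth of a class lay between 7758.5 UMIs per cell in Tk+EE at day 1 and 67953.5 in EB2 at day 3. The libraries shared 1 cell barcode. Levels below are means over cells of depth-corrected counts per 10000 counts of the cell. They are not divided by gene length. Differences are log2 ratios of such means after adding 0.1 per 10000, within each library, and a difference between cell types is the mean of both libraries. UMI counts were also rebuilt from the depth-corrected values, and shares of UMIs below come from them. The classes come from the same cells, and the members may have entered the clustering, so differences between classes are descriptions with no test.

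The share of a cell's UMIs that came from the 87 genes was higher on average in progenitor and EC-like cells than in enteroendocrine cells and enterocytes. In ISC1 it averaged 52.1% ± 4.03 (SD over 534 cells) at day 1 and 50.8% ± 4.46 (361 cells) at day 3. In ISC2 the mean was 59.4% at day 1 and 57.9% at day 3, and in EB1 58.1% and 56.5%. EC-like cells, with 58.8% and 59.0%, were in the range of ISC2 and EB1. EB3 lay at 53.6% and 54.2%. EB2 was the lowest progenitor class, at 46.1% ± 4.81 (204 cells) at day 1 and 44.5% ± 5.51 (102 cells) at day 3. In both libraries the order of the share among progenitor classes was the same for ISC2, EB1, EB3, ISC1 and EB2, from high to low. A low share is not a low number of member UMIs per cell. EB2, the deepest class, had the highest median number, 23792.5 at day 1 and 31348.0 at day 3. In ISC2 it was 10789.0 and 12826.0, and in mEC 13218.0 and 7504.5.

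In differentiated cells the share was lower. Tk+EE cells had 25.2% ± 6.79 (24 cells) at day 1 and 23.7% ± 5.07 (30 cells) at day 3. The apEC cells had 23.4% ± 9.85 (43 cells) and 20.8% ± 9.69 (38 cells), and the mEC cells 26.2% ± 5.64 (29 cells) and 27.3% ± 5.84 (22 cells). Single cells of Tk+EE ranged from 17.8% to 48.6% at day 1, of apEC from 8.67% to 48.1% and of mEC from 18.5% to 49.5%, so the 3 classes overlapped. AstC+EE cells stood between the lineages on average, at 41.1% ± 13.99 (36 cells) at day 1 and 35.3% ± 10.9 (32 cells) at day 3. Depth differed between the lineages, with a median of 8497.5 UMIs in enteroendocrine and 29325.0 in progenitor cells at day 1. Among cells with 5000 to 20000 UMIs the share of depth-corrected counts was 36.5% and 32.0% in enteroendocrine cells and 56.1% and 55.1% in progenitor cells, at day 1 and day 3.

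**Figure D1:**
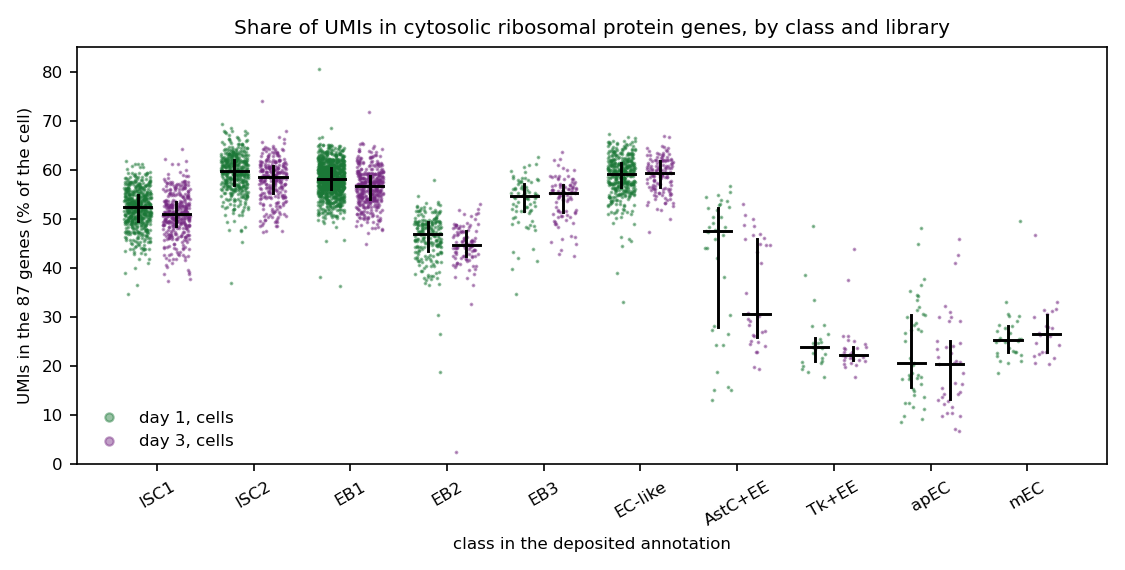
Percent of each cell's UMIs in the 87 ribosomal protein genes (vertical axis) for the 10 classes (horizontal axis), 1 point per cell, green for day 1 and purple for day 3; black lines mark the median and the quartiles. The means of the progenitor and EC-like classes lie from 44.5% to 59.4%, those of Tk+EE, apEC and mEC from 20.8% to 27.3%, and AstC+EE cells fall on both sides of 35%.

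Hormone genes in Tk+EE and digestive genes in apEC took a large share of the counts. The 11 enteroendocrine markers summed to a mean of 1573.3 per 10000 in Tk+EE at day 1 and 1493.6 at day 3, against at most 1.98 in any progenitor class. The 12 enterocyte markers summed to 945.5 and 1225.0 per 10000 in apEC. With the counts of both marker lists left out of the total, the ribosomal protein genes made up 35.1% and 32.7% of depth-corrected counts in Tk+EE, where they were 29.7% and 27.8% with them. In apEC the figures were 26.7% and 23.9% against 24.3% and 21.1%. In mEC the enterocyte markers summed to 64.0 and 57.0 per 10000, and the share was 26.1% and 28.3% without them and 26.0% and 28.2% with them. In progenitor cells it was 55.8% and 54.4% either way.

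The 40S and 60S genes kept the same proportion while the sum changed. The 36 genes of the small subunit supplied between 38.5% of the ribosomal protein UMIs, in EC-like cells at both ages and in apEC at day 3, and 40.2%, in mEC at day 3. In ISC1 the value was 39.0% at day 1 and 38.9% at day 3, and in Tk+EE 39.5% and 39.6%.

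The AstC+EE class was split. Under a line of 35%, set after seeing the values, lay 11 of 36 cells at day 1 and 18 of 32 cells at day 3. The neuropeptide gene AstC, which names the class, had a value above 0 in 9 of those 11 and 16 of those 18 cells, with medians of 225.1 and 293.9 counts per 10000. Among the cells at or over 35% it had one in 3 of 25 and 4 of 14 cells, and the median was 0 at both ages. The whole list of 11 enteroendocrine markers summed to a median of 551.2 and 486.9 per 10000 under the line and 8.38 and 23.6 at or over it. The stem cell ligand gene Dl went the other way, with values above 0 in 4 of 11 and 4 of 18 cells under the line and in 18 of 25 and 12 of 14 at or over it. The whole list of 8 progenitor markers went with Dl, with median sums of 18.7 and 19.6 per 10000 under the line and 33.1 and 45.1 at or over it. Within that list esg did not follow Dl, with medians of 4.42 and 5.78 per 10000 under the line and 1.74 and 2.62 at or over it. The fate regulator gene pros had a value in 11 of 11 and 17 of 18 cells under the line and in 24 of 25 and 14 of 14 at or over it, with medians of 6.02 and 8.37 per 10000 under the line and 4.09 and 8.15 at or over it. The cells under the line were shallower, with a median of 6539.0 and 6728.0 UMIs against 12943.0 and 13716.0. AstC was at 0 in 24 of 36 AstC+EE cells at day 1 and in 12 of 32 at day 3, and their mean UMI share in the members was 47.2% and 45.5%. The AstC+EE cells with AstC above 0, 12 and 20 in number, had 28.9% and 29.1%. The main enteroendocrine results are given with and without the cells at 0, an alternative added after seeing the data.

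**Figure D2:**
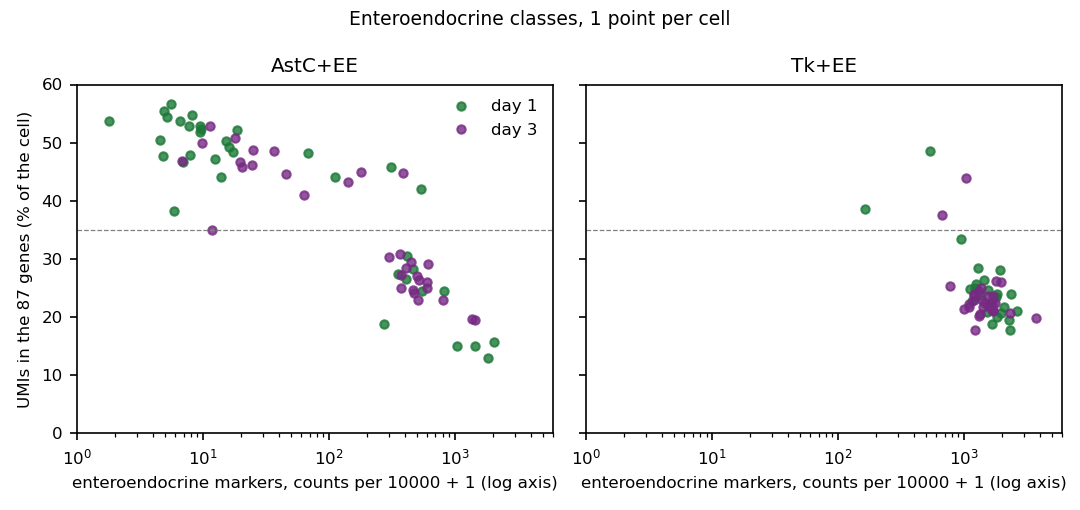
Percent of UMIs in the 87 ribosomal protein genes (vertical axis) against the summed counts of 11 enteroendocrine marker genes per 10000 plus 1 (horizontal log axis), 1 point per cell, for AstC+EE (left) and Tk+EE (right), green for day 1 and purple for day 3; the dashed line marks 35%. AstC+EE cells form 2 groups, while all but 2 Tk+EE cells per library lie under the line.

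Differences between cell types were then taken gene by gene. With a filter on the mean level (0.1 per 10000 or more in 1 of the groups compared), 83 of the 87 genes entered the comparisons of lineages. RpS5b, RpS10a, RpS19b and RpL7-like did not.

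In enterocytes, each of these 83 genes was lower than in progenitor cells by at least 1.5-fold in both libraries, where 40.5% of all 4842 genes passing the same filter were, and 0 were higher, where 19.7% were. Among cells with 5000 to 20000 UMIs 75 of 83 passed, and with a pseudocount of 1 per 10000 80 of 83 did. The share over all genes was not computed under these settings. The median difference over the members was -1.17, against -0.50 over all genes. The genes of the 40S subunit had a median of -1.17 and those of the 60S subunit of -1.16. RpL41, which encodes the smallest ribosomal protein, differed most. Its level was 155.6 per 10000 at day 1 and 172.0 at day 3 in progenitor cells and 46.8 and 46.3 in enterocytes, a difference of -1.81. RpS15Aa (-1.71), of the small subunit, came next. The smallest differences were those of RpL4 (-0.67), RpL24-like (-0.68) and RpL34b (-0.69), all named for the large subunit. For RpL4 the level was 42.0 and 41.1 in progenitor cells and 25.9 and 26.3 in enterocytes, so the direction was the same as for the rest. The 2 enterocyte classes differed when each was set against ISC1. In apEC the median was -1.21 over 84 members and -0.70 over all genes, and 1 member lay above the latter. In mEC the medians were -0.94 and -0.75, and 23 of 84 members lay above the latter. RpL24-like (-0.10) differed least there.

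In enteroendocrine cells the members were lower by less. At 1.5-fold in both libraries, 35 of 83 were lower, where 7.3% of 4930 genes were, and 0 of 83 were higher, where 22.1% were. The median difference was -0.65 over the members and 0.20 over all genes, and from rebuilt UMIs it was -0.78. Without the AstC+EE cells at an AstC value of 0 the median was -0.87 and 75 of 83 members were past 1.5-fold, counted in either direction. Over the other settings tried, the number past 1.5-fold ran from 20, with counts summed over cells, to 81, per 10000 of the counts outside the members. The share over all genes was not computed under these alternatives, so the 7.3% applies to the main setting only. RpL34a stood apart, at 10.8 and 10.0 per 10000 in progenitor cells and 4.72 and 3.71 in enteroendocrine cells, a difference of -1.30. RpL27A (-0.87) and RpS2 (-0.86) followed. RpL27A, among the genes with the highest counts, went from 148.0 and 140.7 to 86.7 and 72.3. The smallest differences among the genes above 1 per 10000 included RpL38 (-0.26), whose level was 64.3 and 71.9 in progenitor cells and 56.9 and 56.4 in enteroendocrine cells. RpLP0-like (-0.21) and RpS15Ab (0.19) have levels near 1 per 10000. From rebuilt UMIs the differences were -0.60 and -0.11. RpS15Ab was at 0.92 and 0.94 in progenitor cells and 1.254 and 0.91 in enteroendocrine cells, so the 2 libraries differed in direction.

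The 2 enteroendocrine classes differed mainly with the AstC+EE cells at an AstC value of 0 included. With all cells, AstC+EE was higher than Tk+EE by a median of 0.49, against 0.16 over all genes, and 18 of 84 members were higher by 1.5-fold in both libraries, where 12.7% of genes were. Lower were 0 of 84, where 6.71% of genes were. Without the cells at 0 the median was 0.19 and 1 of 83 members was higher. The median and share over all genes were not computed without these cells. RpS15Aa was among the 18, with 40.3 and 41.4 per 10000 in AstC+EE and 21.7 and 20.6 in Tk+EE. RpS19b (1.66) is also counted there. It had no UMIs in Tk+EE and passed the filter only through AstC+EE, where it is high, so its call was set by the filter. Against ISC1, the median was -0.35 for AstC+EE, -0.68 for AstC+EE without the cells at 0, and -0.89 for Tk+EE. RpL34a was low in both, at 5.02 and 3.88 in AstC+EE and 4.26 and 3.52 in Tk+EE, against 13.2 and 12.01 in ISC1.

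In EC-like cells the levels of the members differed little from those in progenitor cells. The median difference was 0.07 over the members and -0.24 over all genes, and all 83 members lay above the median of all genes. Higher by 1.5-fold were 0 of 83 (0.766% of genes were) and lower 0 of 83 (5.86% were). RpL24-like (0.34), RpL8 (0.25) and RpL37a (0.23) were highest relative to progenitor cells, and RpS15Ab (-0.15), RpLP0-like (-0.14) and RpL34a (-0.10) lowest. Without the 81 EC-like cells of the authors' cluster 6, all of day 1, the median was 0.08. With the mean of the deposited log values in place of the mean of counts the median was -0.02.

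**Figure D3:**
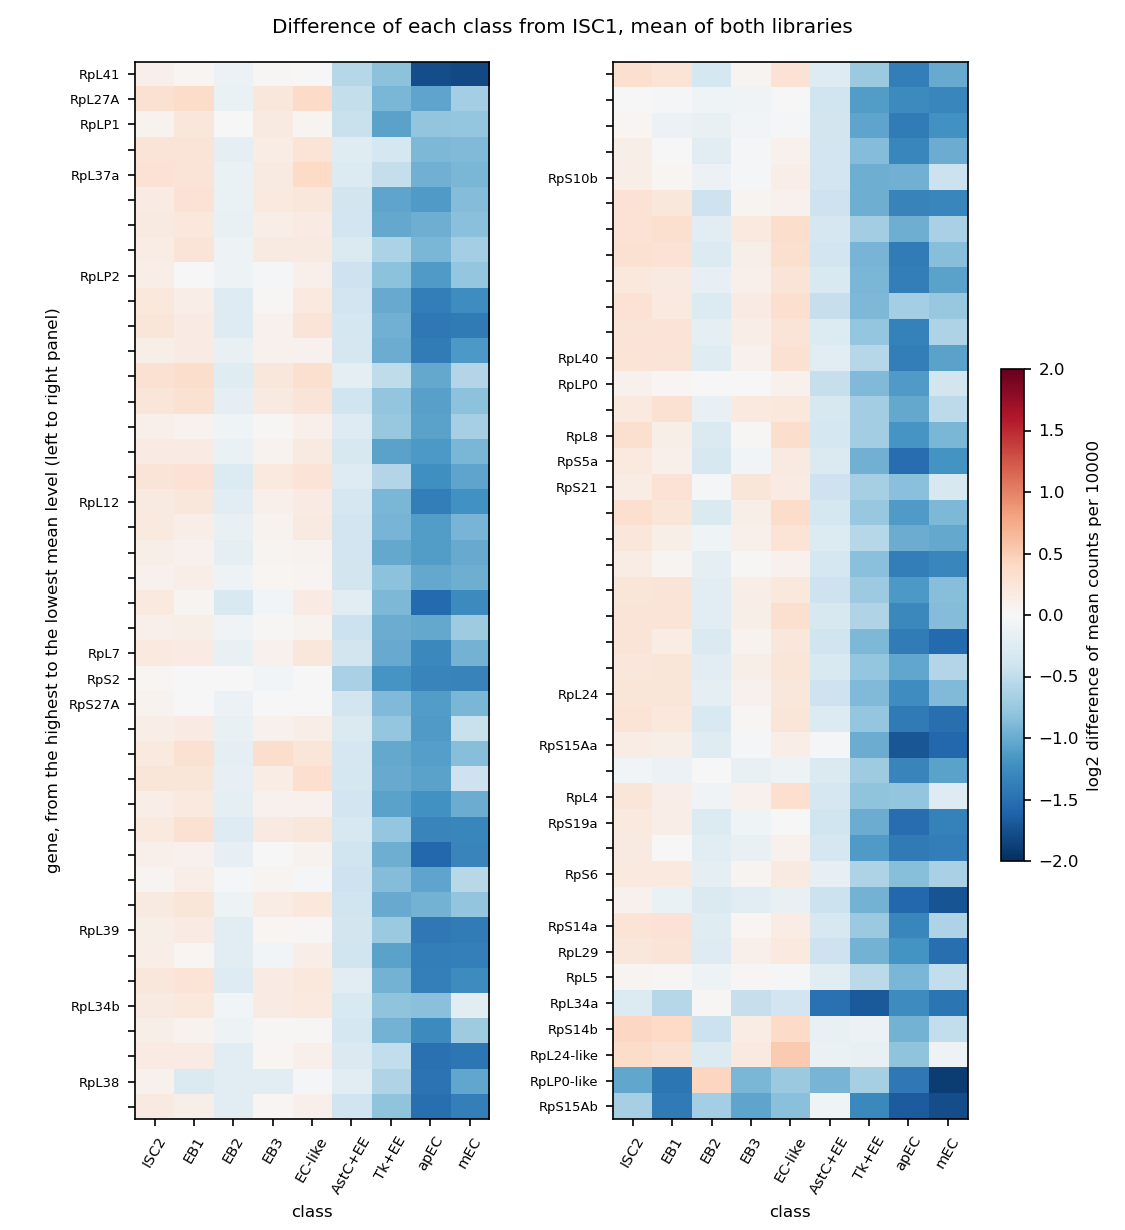
Log2 difference of each class from ISC1 (colour, blue lower and red higher) for the 83 genes that average 0.5 per 10000 or more over all cells (rows, with some of the genes labelled) in the other 9 classes (columns), mean of both libraries. Most rows share 1 pattern, pale from ISC2 to EC-like and blue from AstC+EE to mEC; RpL34a, RpLP0-like and RpS15Ab depart from it.

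Genes with roles of their own in translation followed the common pattern. The stalk proteins RpLP0, RpLP1 and RpLP2, which recruit elongation factors to the ribosome, differed by -0.66, -0.80 and -0.60 in enteroendocrine cells and by -0.82, -0.90 and -1.01 in enterocytes. RpL40 and RpS27A, each made as a fusion to ubiquitin, differed by -0.51 and -0.58 in enteroendocrine cells and by -1.41 and -1.05 in enterocytes. RpS6, the target of S6 kinase, was at 31.7 and 31.1 per 10000 in progenitor cells, 23.3 and 22.2 in enteroendocrine cells and 17.8 and 16.1 in enterocytes. Of these 83 genes RpS6 had one of the smallest ranges over the classes, 1.06 on the log2 scale from EB1 to apEC, with RpL5 (0.97) and RpL34b (1.04). The widest ranges were those of RpLP0-like (2.33), RpL41 (1.92) and RpS15Aa (1.86).

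The medians of the ribosomal protein genes and of the ribosome assembly genes had opposite signs from EB1 to EB2 and from ISC1 to ISC2. Few members were past 1.5-fold. Levels are relative to all counts of a cell, members included, so a change in the members' share shifts the other genes the opposite way. That share of depth-corrected counts was 58.5% and 57.2% in EB1 and 46.6% and 45.4% in EB2, at day 1 and day 3. In ISC1 it was 52.2% and 51.1%, and in ISC2 58.9% and 57.8%. How far this sets the opposite signs was not tested, since these comparisons were not made outside the members. From EB1 to EB2 the median difference of the members was -0.35, with 3 of 83 lower by 1.5-fold in both libraries (9.97% of genes were) and 2 of 83 higher (36.5% were). The median over all genes was 0.40, and EB2 was also the deepest class. Of 38 ribosome assembly genes, 31 were higher in EB2 by 1.5-fold and 1 lower, with a median of 1.13. NHP2, of the small nucleolar particles that modify ribosomal RNA, was higher by 2.57, and Surf6, a nucleolar assembly factor, by 2.01. Non1, a nucleolar GTPase of the large subunit, was lower, at -1.49. Of the 71 genes of mitochondrial ribosomal proteins that passed the filter, 68 were higher, with a median of 1.61. Of 6 genes of a list for RNA polymerases I and III, which also holds the regulators Tif-IA and Maf1, 4 were higher. Of 9 genes of a translation elongation list, which also holds Nacalpha, bic and Tctp, 1 was higher, eEF1delta, by 2.51.

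The members highest in EB2 relative to EB1 were minor paralogs. RpLP0-like was at 0.48 per 10000 in EB1 at both ages and at 2.31 and 1.79 in EB2, a difference of 1.88. Its yeast relative Mrt4 takes the place of the stalk protein P0 while the large subunit is assembled. RpS15Ab was higher by 0.74, also past 1.5-fold in both libraries, and RpL34a by 0.60, which was not. Lowest were RpS14b (-0.83), RpL15 (-0.65) and RpL36 (-0.62). RpS14b is a minor paralog as well, and so is RpL24-like, which was also lower (-0.57), so the minor copies did not share 1 direction.

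From ISC1 to ISC2 the signs were the other way. The members were higher by a median of 0.18, with 3 of 84 lower by 1.5-fold in both libraries (23% of genes were), namely RpLP0-like, RpS15Ab and RpS19b. RpS19b passed the filter only through ISC1, where it is high, and without it 2 of 83 were lower. Higher were 0 of 84 (2.35% were). Of 37 ribosome assembly genes, 27 were lower and 1 higher, with a median of -0.82, and of 71 mitochondrial ribosomal protein genes 46 were lower, with a median of -0.78. The median over all genes was -0.31.

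The paralog pairs were compared by the share of the lower copy in the UMIs of the pair, summed over the shallower cells (at most 28085.5 UMIs, the median), with exact (Clopper-Pearson) 95% binomial intervals. These intervals cover counting error only. Copies with near-identical sequence may exchange reads, which was not tested.

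RpL34a and RpL34b encode forms of 1 protein of the large subunit, of up to 162 and 168 residues, from separate sites on chromosome arm 3R (3R:26058420-26059267 and 3R:9400237-9401226 on the minus strand, BDGP6). RpL34a supplied 17.0% of the pair in ISC1 at day 1 (16.7 to 17.4) and 16.7% at day 3. In ISC2 it supplied 12.03% and 12.5%, and in EB1 10.1% and 9.26%. EB2 was as high as ISC1, with 17.2% (16.0 to 18.5, 24 cells) and 15.6% (12.7 to 18.8, 6 cells). The enteroendocrine classes were low, with 5.97% (4.95 to 7.13) and 5.003% in AstC+EE and 6.32% and 6.83% in Tk+EE. The enterocyte classes parted, with 11.5% and 15.2% in apEC and 6.13% and 5.42% in mEC. Over cells of all depths the mEC shares were 7.71% and 7.86%. The intervals of the 2 enteroendocrine classes overlapped each other and lay below those of all progenitor classes. In AstC+EE cells with AstC above 0 alone the share was 5.11% (3.06 to 7.96, 11 cells) and 8.35% (6.31 to 10.8, 17 cells), and in those at 0 6.17% and 2.55%.

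RpS14a and RpS14b are neighbours on the X chromosome (X:7933742-7934677 and X:7934898-7935792, plus strand, BDGP6), and both encode proteins of 151 residues. RpS14b supplied 25.6% of the pair in progenitor cells at day 1 (25.3 to 25.9) and 21.5% at day 3 (21.0 to 21.9). It was lower at day 3 in each of the 10 classes, and the intervals of the 2 libraries did not overlap in ISC1, ISC2, EB1, EC-like and Tk+EE. The level of RpS14b itself was not lower in mEC, at 4.87 and 5.79 per 10000, where RpS14a was at 12.6 and 23.1. In Tk+EE RpS14b was at 7.19 and 6.60 and RpS14a at 13.96 and 17.5. RpS14a showed no such difference in progenitor cells, at 29.6 and 29.3 per 10000, while RpS14b was at 10.0 and 7.71. In mEC the share depended on the cells used, with 20.9% at day 1 up to the median depth (8 cells) and 35.2% over all 29 cells.

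RpS15Ab was the minor copy of RpS15Aa. It supplied 4.29% of the pair in ISC1 at day 1 (4.04 to 4.55) and 4.12% at day 3, against 1.91% and 2.04% in ISC2 and 1.41% and 1.33% in EB1. AstC+EE had 4.53% (3.48 to 5.80) and 3.28%, with 3.91% and 1.09% in its cells with AstC above 0 and 4.76% and 5.06% in those at 0, and Tk+EE 1.63% and 1.06%, from 5 and 6 UMIs. RpS15Ab itself was at 1.57 and 1.53 per 10000 in ISC1 and 0.56 and 0.48 in EB1.

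RpS19b, which is known from the germ line, gave few UMIs. In ISC1 it supplied 0.420% of the pair at day 1 (0.340 to 0.515, from 93 UMIs in 55 of 294 cells) and 0.509% at day 3 (49 UMIs in 36 of 129 cells). In ISC2 the share was 0.0998% and 0.0832%, and in EB1 it was 0.0171% at day 1, from 5 UMIs in 322 cells, and 0 at day 3, which allows up to 0.0508%. AstC+EE had the highest values, 1.26% (0.650 to 2.18, 12 UMIs in 7 of 32 cells) and 0.973% (9 UMIs in 4 of 29 cells). Of these UMIs, 12 of 12 at day 1 and 5 of 9 at day 3 were in cells with AstC at 0, and the other 4 at day 3 in 1 cell. In Tk+EE it was at 0 in both libraries, which allows up to 1.14% and 0.547%. The 7 germ line and ovary markers in the table summed to at most 0.0936 per 10000 in any class, and in AstC+EE 5 of the 7 were at 0 at day 1 and 4 at day 3.

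RpS5b, another copy known from the ovary, supplied 0.0198% of its pair with RpS5a in progenitor cells at day 1 (23 UMIs) and 0.0253% at day 3 (11 UMIs). RpS10a had a value in 4 of 4184 cells and RpL7-like in 8, so nearly all transcripts of those pairs were from RpS10b and RpL7.

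RpL24-like and RpLP0-like are named for their likeness to ribosomal proteins, and their yeast relatives Rlp24 and Mrt4 act in assembly. RpL24-like supplied 11.5% of the sum with RpL24 in progenitor cells at both ages, and no progenitor class exceeded 12.9%. It was higher in enterocytes, with 16.5% (14.1 to 19.2) at day 1 and 14.5% (12.2 to 17.0) at day 3, and in Tk+EE at day 3, with 16.5% (13.8 to 19.5). RpLP0-like supplied 2.79% (2.61 to 2.97) and 2.72% of the sum with RpLP0 in ISC1, 0.985% in ISC2 at day 1, 0.851% and 0.890% in EB1 (day 1 and day 3) and 4.58% (3.82 to 5.45) and 3.64% (18 UMIs in 6 cells) in EB2. So ISC1 and EB2 had the highest shares of RpL34a and RpLP0-like among the progenitor classes. ISC1 also had the highest RpS15Ab share among them, with EB2 next at day 1.

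**Figure D4:**
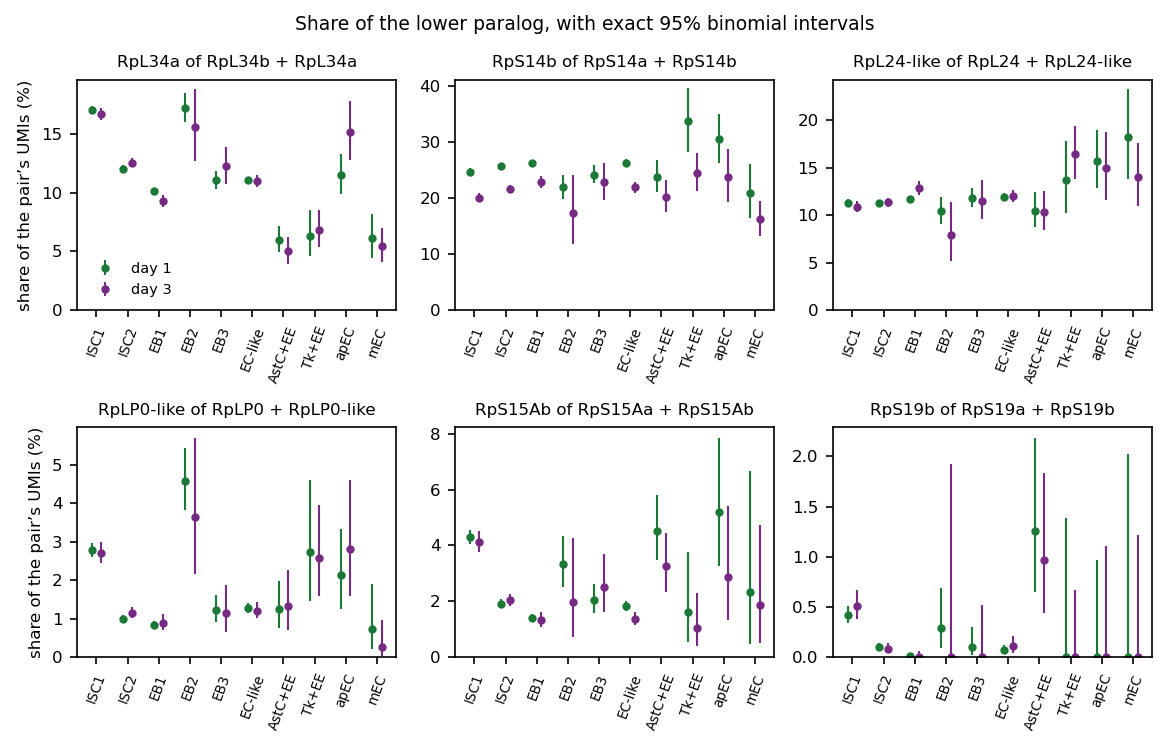
Share of the lower paralog in the summed UMIs of 6 pairs (vertical axes, percent) for the 10 classes, from the cells of at most median depth, green for day 1 and purple for day 3; points are shares and bars exact 95% binomial intervals. RpL34a, RpLP0-like and RpS15Ab are high in ISC1 and RpS14b is lower at day 3 in every class.

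Between the ages, most members differed little, and a few differed in every class. In progenitor cells the median of day 3 over day 1 was -0.05 over 83 members and 0.04 over all genes. Counting log2 differences of at least 0.32 in size between the ages, 2 members were higher at day 3, RpL29 and RpS21 (7.24% of 4516 genes were), and lower was 1, RpS14b (2.68% were).

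RpL29, a small protein of the large subunit, was at 15.7 per 10000 in progenitor cells at day 1 and 24.3 at day 3, a difference of 0.63. All 10 classes had more of it in the older flies, by 0.27 in apEC to 0.92 in mEC. In EC-like cells it was at 16.1 and 25.9, in enteroendocrine cells at 10.2 and 13.0 and in enterocytes at 5.97 and 8.49. RpS21, of the small subunit, was also higher in all 10 classes, by 0.19 to 0.59, with 48.8 and 61.3 in progenitor cells. RpL39, of the peptide exit tunnel, was higher in 9 of 10 classes, with 69.7 and 81.0 in progenitor cells, and lower in apEC (-0.07). RpL39 and RpL12 overlap at their 3′ ends on opposite strands of arm 2R in the annotation. RpL12 was lower at day 3 in all 10 classes, with 92.6 and 83.6 in progenitor cells. A link between the overlap and these differences was not tested.

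Lower in all 10 classes were 7 of 83 members, among them RpL10Ab, RpL12, RpL13A, RpL23, RpL37a and RpS16, and higher in all 10 were 2. Among all 1666 genes at 0.5 per 10000 or more, 6.06% were lower and 3.24% higher in all 10 classes, so the shares of the members, 8.43% and 2.41%, were near those of other genes. For RpL12 the difference reached -0.40 in apEC. In progenitor cells the lowest after RpS14b were RpL12 (-0.15) and RpL34b (-0.14).

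RpL29, RpS21 and RpL39 encode short proteins. Across 82 members matched to the annotation, Spearman's rho between protein length and the day difference in progenitor cells was -0.44, and from transcript length it was -0.38. The 15 members with the shortest proteins had a median of 0.01, with 9 of 15 above 0, and the other 67 a median of -0.06, with 9 of 67 above 0. The rho was -0.47 in EC-like cells, -0.41 in enteroendocrine cells and -0.13 in enterocytes (80 members), with 0.065 in apEC and -0.30 in mEC. The 15 include RpL29, RpS21 and RpL39, which prompted this comparison. All points of a group come from the same 2 libraries, so this describes that pair of libraries.

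**Figure D5:**
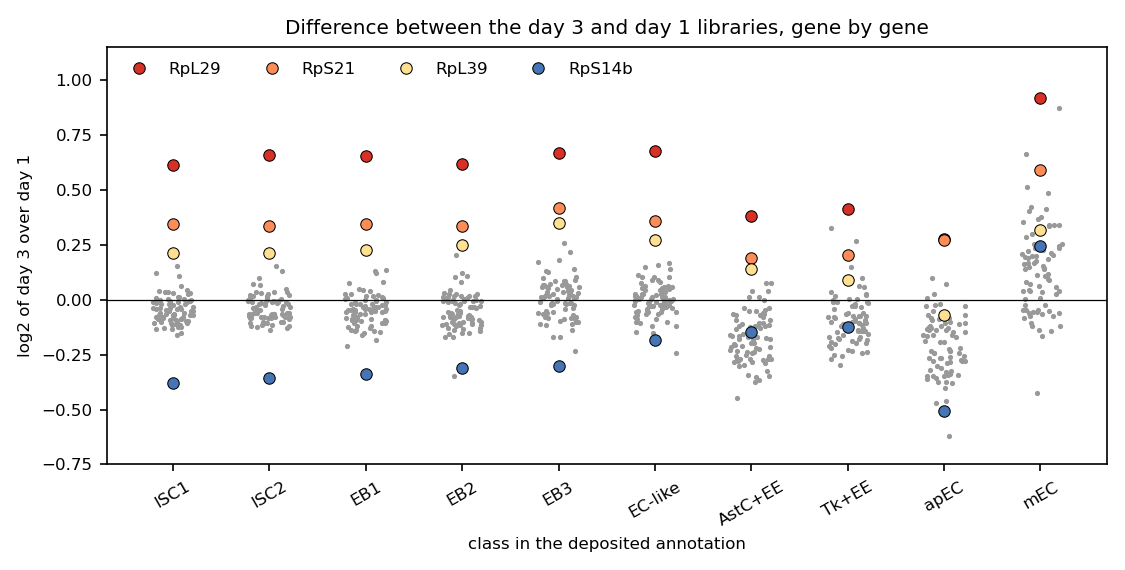
Log2 of day 3 over day 1 of the mean counts per 10000 (vertical axis) for each member in the 10 classes (horizontal axis); coloured points mark 4 named genes and grey points the others. RpL29 and RpS21 lie above 0 in every class, and RpS14b lies below 0 in 9 of 10; in apEC the points of RpL29 and RpS21 coincide.

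In enteroendocrine cells the median of day 3 over day 1 was -0.19 over 84 members and 0.03 over all genes. Of 84 members, 7 were lower past the same threshold (15.5% of genes were) and 1 higher (23.6% were), RpL29. The 7 include RpS19b, which passed the filter only through day 1, and without it 6 of 83 were lower. Lowest, among genes at 0.5 per 10000 or more, were RpS15Ab (-0.42) and RpS2 (-0.36), and highest RpL29 (0.35), RpS21 (0.17) and RpS14a (0.13). RpS2, of the small subunit, was at 51.9 and 40.3 per 10000. Without the AstC+EE cells at an AstC value of 0 the median over the members was -0.04 and 2 members passed the threshold. The share over all genes was not computed without these cells. Within AstC+EE the median was -0.17, or 0.03 without those cells, and within Tk+EE -0.10, and the share of UMIs in the members in Tk+EE was 25.2% and 23.7%.

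In EC-like cells the median was -0.0011. RpS15Ab (-0.24), RpS14b (-0.18) and RpL34a (-0.15) were lowest, with 2 of 83 higher past the threshold (8.57% of genes were) and 0 lower (15.1% were). RpL29, RpS21 and RpL39 were highest, at 0.68, 0.36 and 0.27.

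In enterocytes the median was -0.09, with 3 of 83 higher (19.1% of genes were) and 1 lower (25.2% were). Highest were RpL29 (0.50), RpS14a (0.41) and RpS21 (0.40), and lowest RpS28b (-0.38), RpS4 (-0.28) and RpL12 (-0.27). The classes apEC and mEC went in opposite directions. In apEC the median was -0.19 and 20 of 83 members were lower past the threshold, where 39% of genes were, and 0 higher, where 14.8% were. In mEC the median was 0.14 and 16 of 83 members were higher, where 41.5% were, and 1 lower, where 22.1% were. The medians over all genes were -0.20 and 0.17, near those of the members.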

How the data were processed

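The submitters' processing notes name Cell Ranger 6.0.1 and BDGP6. Other steps are not given in the sources used here. The deposited expression values are the natural log of 1 plus a whole depth-corrected count; those whole numbers sum in every cell to the deposited score that the authors give as the corrected total. UMI and gene counts per cell and the percent of ribosomal counts are the authors' deposited columns. Column names are those of Seurat with SCTransform. Classes are the authors'. No doublet caller was run here.

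UMI counts were rebuilt by inverting the depth correction (3 parameters per gene, fitted on 600 cells, scipy 1.17.1). The deposited ribosomal percent covers 130 genes starting Rp. Rebuilt totals of these equalled it in 99.8% of the 2092 shallower cells and differed by -0.358% to 0.281% in deeper cells. RpS10a and RpL7-like were too rare to fit, and each value above 0 was taken as 1 UMI. The procedure was tested on simulated data.

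A class difference was counted at 1.5-fold in both libraries and an age difference at 0.32 on the log2 scale. The named genes were the paralogs, the extremes of level, range and each lineage or age difference, the stalk and ubiquitin-fused proteins and RpS6. Some genes that this rule names are not reported here. Other genes were named after their values were seen. Members and lists were chosen with earlier results of these data known. Gene positions come from the BDGP6 annotation, where 86 of 87 members matched by symbol and RpL37a did not.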

Additional observations from a re-analysis of the deposited data

Results flagged for a closer look

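In mEC the median difference of the ribosomal protein genes, day 3 over day 1, was 0.14, and in EB3 it was 0.014, while in the other 8 of the 10 classes it was below 0. The difference between these classes was not tested, since each age had 1 library. The mEC class held 29 cells at day 1 and 22 at day 3, its median depth was 48277.0 and 26839.0 UMIs, and its median over all genes was 0.17. The EB3 class held 74 and 91 cells, and its median over all genes was -0.05. From rebuilt UMIs the medians were 0.068 in mEC and 0.0051 in EB3.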

How the results depend on the processing

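No paired analysis was possible because each age had 1 library and no result came from a test. Of 132 alternatives, 67 left the value within a set range, 64 moved it out of that range and 1 reversed its sign. For medians the range was an interval of the median over the member genes. For shares it was a binomial interval, which covers counting error only, and every alternative for a share of counts by cell type fell outside it. For numbers of members it was a fixed ratio to the main value. None of these ranges covers variation between libraries. The cause of the moved and reversed values was not tested. The reversed value was the EC-like median with the mean of the deposited log values, -0.021.

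The enteroendocrine median difference was -1.09 per 10000 of the counts outside the members, -0.93 with the mean of the log values, -0.78 from rebuilt UMI counts, -0.70 in cells with 5000 to 20000 UMIs, -0.67 without the highest cell of each gene and library and -0.87 without the AstC+EE cells at an AstC value of 0. Past 1.5-fold were, in that comparison, 81, 78 and 68 members under the first 3 of these, 75 under the last and 20 with counts summed over cells. No share over all genes was computed under the alternatives, here or between ages. The enterocyte median was -1.87 outside the members, -1.31 with log values and -1.01 in the depth window. The EC-like median was 0.14 outside the members and 0.10 from rebuilt counts.

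Between ages, the median outside the members was -0.090 in progenitor and -0.33 in enteroendocrine cells. In the latter it was -0.24 from rebuilt counts and -0.039 without the AstC+EE cells at 0. Members past the age threshold there were 45 outside the members, 21 from rebuilt counts, 16 in the depth window, 5 with log values, 4 with a pseudocount of 1 and 2 without the AstC+EE cells at 0.

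The share of counts in the members, day 1 then day 3, was from rebuilt counts 55.6% and 53.9% in progenitor, 58.8% and 59.0% in EC-like, 34.8% and 29.7% in enteroendocrine cells, then 24.5% and 23.2% for the enterocytes. In the depth window it was 56.1% and 55.1%, 57.8% and 57.8%, 36.5% and 32.0%, and 28.3% and 26.8%, in the same order. Outside mitochondrial genome genes it was 57.3% and 56.0%, 59.9% and 60.8%, 38.7% and 34.3%, and 25.2% and 23.9%. Without the AstC+EE cells at 0 it was 30.7% and 29.9% in enteroendocrine cells.

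Paralog shares in progenitor cells over all depths were 11.1% for RpL24-like, 13.2% for RpL34a, 1.75% for RpLP0-like, 23.8% for RpS14b, 2.01% for RpS15Ab and 0.0988% for RpS19b. In the depth window they were 11.9% for RpL24-like and 2.54% for RpS15Ab. From depth-corrected counts they were 12.04% for RpL24-like, 13.3% for RpL34a, 25.1% for RpS14b and 0.141% for RpS19b.

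The alternatives over all depths and without the AstC+EE cells at 0 were chosen after seeing the data. The number of cells limits the enteroendocrine and enterocyte classes, with 22 to 43 cells each per library. Depth limits the enteroendocrine classes and the rare copies RpS19b, RpS5b, RpS10a and RpL7-like. It also limits the paralog shares, which rest on 6 EB2 cells at day 3 and on 8 and 11 mEC cells.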
